A study of Mus musculus with 4 samples.

Results

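The 39 genes described here encode the cyclins, kinases, inhibitors, replication factors and mitotic proteins of the cell division cycle. They were chosen by name, and all 39 were among the 31053 genes counted. Single-cell RNA libraries were prepared from mammary epithelial cells of FVB mice at postnatal week 9. Every mouse was Tfap2c fl/fl and carried Krt5-CreERT2, a Cre recombinase made where the basal keratin promoter Krt5 is active and switched on by 4-hydroxytamoxifen (4OHT). Corn oil, the vehicle, was the label of 2 libraries and 4OHT that of the other 2, so both groups carried the floxed Tfap2c alleles and the Cre. The injections began at week 4 and lasted 5 days by one label, while another label gives a longer course. Nothing in the labels says how many mice went into a library, so the p-values measure only the spread between libraries.

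Division is driven by cyclins that bind and switch on cyclin-dependent kinases (CDKs). D-type cyclins carry growth signals in G1 and E-type cyclins act at the entry into S phase, while the inhibitors p21, p27 and p57 hold the kinases back. The MCM helicase is loaded on DNA before replication, and the A- and B-type cyclins with CDK1 drive mitosis until the anaphase-promoting complex (APC/C) has their regulators destroyed. In the mammary gland, basal (myoepithelial) cells surround an inner luminal layer of progenitors and hormone-sensing cells. Tfap2c encodes the transcription factor AP-2 gamma.

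The files held 3546 and 4323 cells with corn oil labels and 4809 and 5545 with 4OHT labels, and cells under 1000 UMIs (unique molecular identifiers, 1 for each captured RNA) were left out. Libraries held 17351950 to 22017878 UMIs, of which the 39 genes took 0.15 to 0.16%. Between 18 and 36 barcodes were shared by any 2 libraries. Cells were classed as basal, luminal progenitor or hormone-sensing by raw UMIs of 13 genes (keratins, Acta2 and luminal secretory or transport genes), none of them among the 39. The classes held 7028, 5629 and 1168 cells, and 16.3 to 26.5% of the cells of a library met no class. Levels are CPM, the UMIs of a gene scaled to the summed UMIs of its class in a library. Basal markers that the rule did not use (Myh11, Mylk, Tagln, Cnn1, Trp63 and Oxtr) summed to 3801 to 5036 CPM in basal cells and to 99.8 to 238 in progenitors. Progenitor markers outside the rule (Elf5, Kit, Aldh1a3, Cd14, Lcn2 and Mfge8) summed to 5772 to 7898 CPM in progenitors and to 1106 to 2493 in basal cells. Lcn2 made up most of the basal figure, at 965 to 2310.5 CPM, with Mfge8 at 126 to 170. Elf5, Kit, Aldh1a3 and Cd14 reached at most 14.5 CPM there. Whether basal cells made this RNA or took it up from progenitors was not tested. Hormone-sensing markers outside the rule (Esr1, Pgr, Prlr, Areg, Cited1, Foxa1 and Prom1) summed to 1216 to 2265 CPM in hormone-sensing cells and to 135 at most elsewhere. The hormone-sensing sum of the first 4OHT-labelled library also held 1346 CPM of 6 fibroblast markers, against 53.5 to 243 in the others, and its part in the results was not tested. Markers of endothelial cells, pericytes, T cells, B cells, macrophages and red cells summed to at most 141 CPM in any class, with the macrophage markers Adgre1 and Itgax at 0. Basal sums held Tfap2c at 389 and 285 CPM under corn oil labels and at 285 and 325 CPM under 4OHT labels. The groups did not separate on it, and since 3′ counts do not tell exons apart these counts do not measure the deletion.

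The classes differed in which cyclin they carried. Basal cells held more Ccnd2, Ccne2, Cdkn1a and Cdkn1c than both luminal classes and more Cdkn1b than progenitors, and both luminal classes held more Ccnd1. In a fit over 12 sums (edgeR quasi-likelihood test with the library as a block, Benjamini-Hochberg adjustment, threshold 0.05), 28 of the 39 members had enough counts to be tested. Between luminal progenitor and basal cells 20 of the 28 passed, 9 higher and 11 lower in progenitors, against 56.1% of 11135 genes (26.6% higher and 29.5% lower). Between hormone-sensing and basal cells 18 passed, 9 in each direction, against 59.8% of all genes (27.3% higher and 32.4% lower). Between the luminal classes 5 passed, against 46.4% of all genes (21.9% higher and 24.6% lower in hormone-sensing cells). The median log2 difference of the tested members was 0.16, 0.66 and -0.20 in these comparisons, and that of all genes was -0.04, -0.08 and -0.02. These splits and medians changed with which sparse members were tested. With no filter on low counts all 39 were tested. Of these, 15 were higher and 13 lower in progenitors than in basal cells (median 0.64), where 37.7% of 18595 genes passed. In hormone-sensing against basal cells 10 were higher and 10 lower (median 0.56), where 39.4% passed. With only the 2 classes compared in the fit, 24 members were tested between progenitor and basal cells, of which 6 were higher and 11 lower (median -0.17), and 17 between hormone-sensing and basal cells, of which 3 were higher and 9 lower (median -0.79). With cells thinned to 2000 UMIs, 15 were tested, of which 2 were higher and 9 lower in progenitors (median -0.55) and 3 higher and 7 lower in hormone-sensing cells (median -0.55). Scaling by library totals in place of TMM factors moved the median of all genes to -0.31 between progenitor and basal cells and to 0.23 between the luminal classes. All-gene calls then split into 1919 higher and 4426 lower, against 2965 and 3281, and into 3387 and 1907, against 2434 and 2736. The members then split 8 to 12 and 4 to 1, against 9 to 11 and 3 to 2. A sum over a class cannot tell fewer expressing cells from less RNA per cell.

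**Figure D1:**
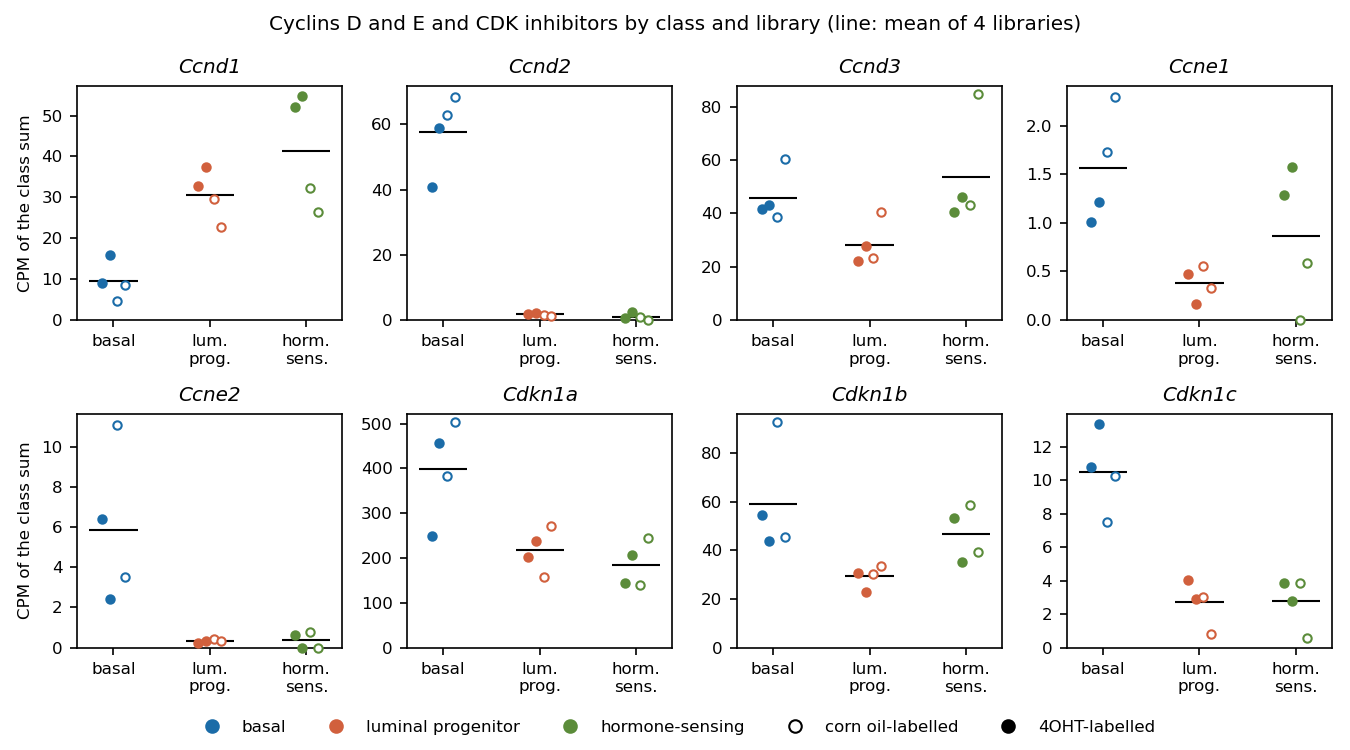
CPM (y axis, linear from 0) of the D- and E-type cyclins and the 3 CDK inhibitors in each class (x axis), with 1 point for each library, open for corn oil labels and filled for 4OHT labels, and a line at the mean of 4 libraries. The 4 basal points of Ccnd2 lie between 40.8 and 68.4 CPM, all above the luminal points, which reach 2.36, while for Ccnd1 every luminal point lies above every basal one.

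Among the D-type cyclins, Ccnd2 (ENSMUSG00000000184, GRCm38 chr6:127125162-127152193, minus strand) was the basal one. Its level was 63.0 and 68.4 CPM in the basal sums of the corn oil-labelled libraries and 40.8 and 58.7 in those of the 4OHT-labelled ones. Progenitor sums held 1.51, 1.16, 1.90 and 1.93 CPM in the same order, from 7 to 16 UMIs each. Hormone-sensing sums held 1, 0, 1 and 6 UMIs, and the sum without a UMI allows up to 1.76 CPM by a count of 3. All 4 libraries therefore had Ccnd2 lower in both luminal classes, by a log2 fold change of -4.81 (SE 0.26, edgeR adjusted p = 2.19e-10) in progenitors and -5.67 (SE 0.36, adjusted p = 1.84e-09) in hormone-sensing cells. Cell by cell, with each cell thinned to 2000 UMIs, a Ccnd2 UMI was found in 7.10 to 10.3% of basal cells, 0.182 to 0.385% of progenitors and 0 to 0.229% of hormone-sensing cells. Without thinning these shares were 12.2 to 19.99%, 0.508 to 0.696% and 0 to 1.34%. How much of the luminal shares came from free RNA in the droplets was not tested.

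Ccnd1 (ENSMUSG00000070348, chr7:144929931-144939925, minus strand), the D-type cyclin best known from breast cancer, had the opposite order. Basal sums held 4.70 and 8.41 CPM with corn oil labels and 9.10 and 15.9 with 4OHT labels. Progenitor sums held 29.6, 22.6, 32.8 and 37.4 CPM, and hormone-sensing sums 32.4, 26.5, 52.2 and 54.7. Every luminal sum lay above every basal sum, with a log2 fold change of 2.02 (SE 0.21, edgeR adjusted p = 5.09e-07) in progenitors and 2.15 (SE 0.22, adjusted p = 4.90e-07) in hormone-sensing cells. The luminal classes overlapped in Ccnd1 (log2 0.13, adjusted p = 0.627), although by CPM hormone-sensing cells held more than progenitors in 4 of 4 libraries. With thinned cells, 0.410 to 2.50% of basal cells, 3.92 to 5.62% of progenitors and 3.37 to 8.90% of hormone-sensing cells had a Ccnd1 UMI, against 2.12 to 3.86%, 8.75 to 11.9% and 11.2 to 19.6% without thinning.

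Ccnd3, the third D-type cyclin, was present in every class, at 45.9 ± 9.79 CPM (SD, n = 4 libraries) in basal cells, 28.2 ± 8.39 in progenitors and 53.6 ± 20.8 in hormone-sensing cells. It was lower in progenitors than in basal cells in 4 of 4 libraries (log2 -0.45, SE 0.14, edgeR adjusted p = 0.0105). That call did not survive leaving out the first 4OHT-labelled library (log2 -0.35, adjusted p = 0.103). Hormone-sensing cells exceeded progenitors by 0.67 (SE 0.15, adjusted p = 0.00150) and were not told apart from basal cells (log2 0.22, adjusted p = 0.213). The D-type cyclins thus had 3 different orders over the classes, with Ccnd2 nearly all basal, Ccnd1 mostly luminal and Ccnd3 shared.

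Of the E-type cyclins, which partner CDK2 at the start of S phase, Ccne2 (chr4:11191351-11204779, plus strand) was tested and Ccne1 was too sparse. Ccne2 reached 11.1 and 3.52 CPM in the basal sums with corn oil labels and 6.40 and 2.43 in those with 4OHT labels. In the luminal sums it stayed between 0 and 0.771 CPM, from 0 to 3 UMIs each. The log2 fold change was -3.80 (SE 0.40, edgeR adjusted p = 7.26e-07) in progenitors and -4.06 (SE 0.61, adjusted p = 2.73e-05) in hormone-sensing cells. With so few luminal UMIs, Ccne2 entered the fit through the basal sums, so the filter on low counts favoured lower calls. Ccne1 had 43 UMIs in all basal sums together, 11 in the progenitor sums and 7 in the hormone-sensing sums.

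The CDK inhibitors were higher in basal cells than in progenitors as well. Cdkn1a, which encodes the p53 target p21 (ENSMUSG00000023067, chr17:29090976-29100727, plus strand), was at 383, 504, 248 and 458 CPM in the basal sums, in the order first and second corn oil-labelled and first and second 4OHT-labelled library. Progenitors held 158, 271, 203 and 237 CPM and hormone-sensing cells 139, 244, 144 and 206. Every library had the order basal, progenitor, hormone-sensing, although the basal 248 CPM lies below the progenitor 271 of another library. The log2 fold change against basal cells was -0.59 in progenitors (SE 0.15, edgeR adjusted p = 0.00280) and -1.10 in hormone-sensing cells (SE 0.15, adjusted p = 1.08e-05), and between the luminal classes it was -0.51 (SE 0.15, adjusted p = 0.0106). The call in progenitors was lost with stricter classes, which required 10 UMIs of the class genes and a 10-fold excess (log2 -0.22, adjusted p = 0.284), and with no library block (log2 -0.62, adjusted p = 0.0734). Scaling by library totals ended the call between the luminal classes (log2 -0.26, adjusted p = 0.131).

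Cdkn1b, encoding p27, was at 59.1 ± 22.9 CPM (SD, n = 4) in basal cells, 29.2 ± 4.48 in progenitors and 46.6 ± 11.2 in hormone-sensing cells. The basal mean includes 92.7 CPM in the first corn oil-labelled library and 43.7 to 54.4 in the others. Progenitors were lower than basal cells in 4 of 4 libraries (log2 -0.70, SE 0.15, edgeR adjusted p = 0.00106), by -0.46 without the first corn oil-labelled library and by -0.41 with the stricter classes (adjusted p = 0.119). Hormone-sensing cells did not pass against basal cells (log2 -0.30, adjusted p = 0.125). Cdkn1c, the imprinted gene of p57, was at 7.54 to 13.4 CPM in basal cells, 0.826 to 4.05 in progenitors and 0.588 to 3.86 in hormone-sensing cells, with no overlap between basal and luminal sums. Its log2 fold change was -1.69 (SE 0.31, adjusted p = 0.000242) in progenitors and -2.01 (SE 0.42, adjusted p = 0.000645) in hormone-sensing cells.

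**Figure D2:**
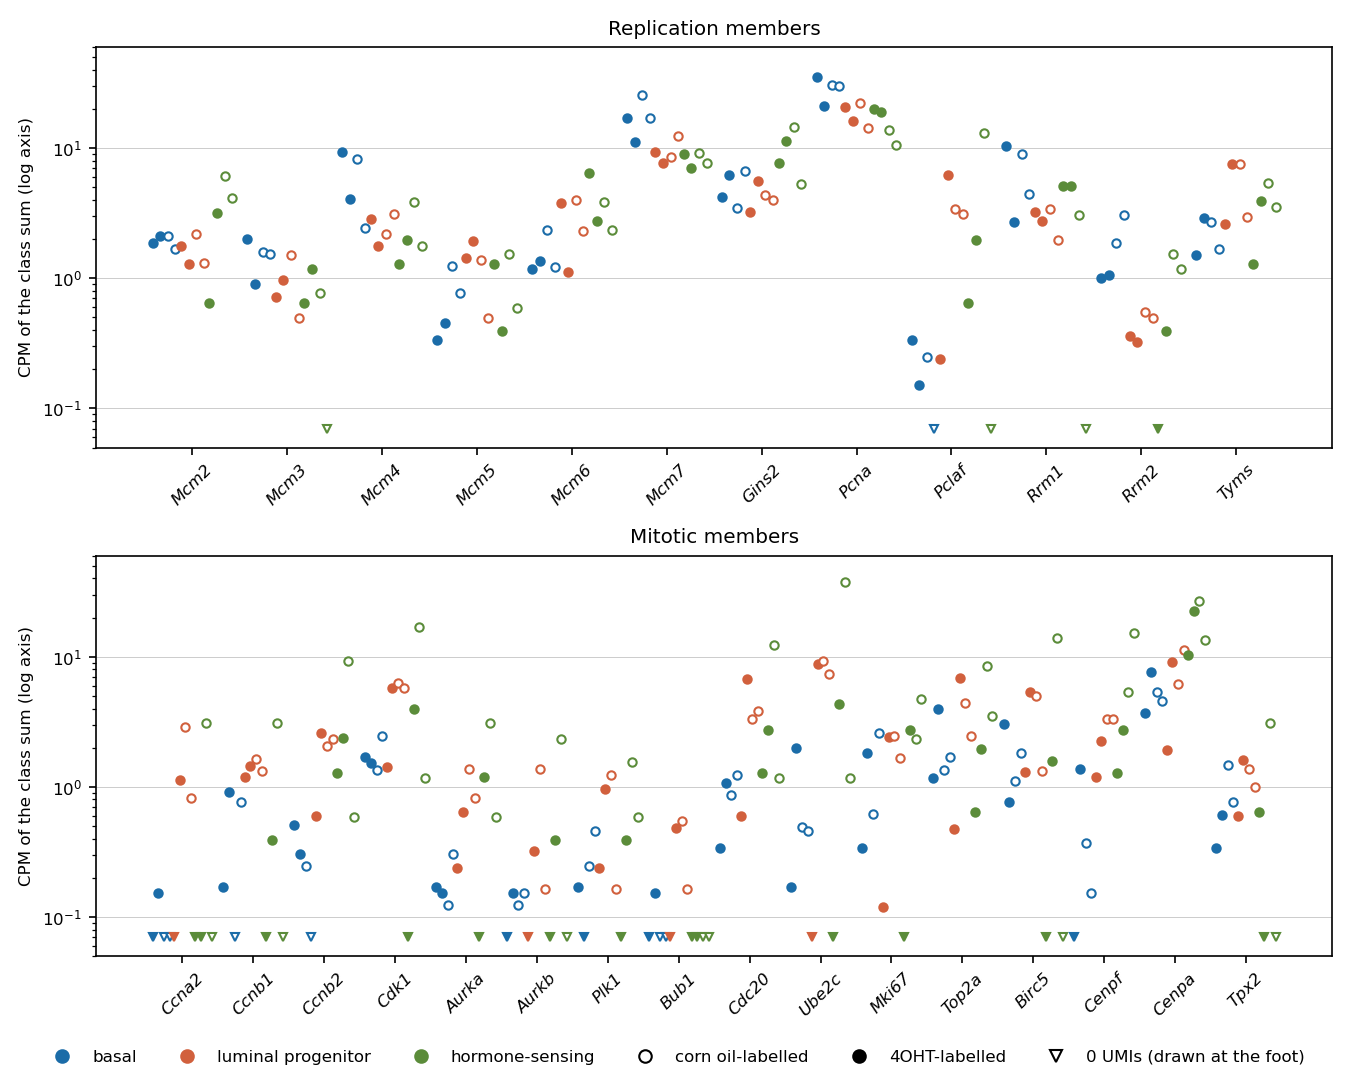
CPM (y axis, log scale) of the 12 replication members (upper panel) and the 16 mitotic members (lower panel) in each class and library, with triangles at the foot for sums of 0 UMIs. Most mitotic members lie under 10 CPM in every class, and for many of them the highest point is the hormone-sensing sum of the first corn oil-labelled library.

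Replication genes did not move as a group between the classes. Pcna, the sliding clamp of the DNA polymerases, was at 29.3 ± 5.94 CPM (SD, n = 4) in basal cells, 18.3 ± 3.67 in progenitors and 15.8 ± 4.39 in hormone-sensing cells. It was lower in hormone-sensing than in basal cells (log2 -0.83, SE 0.21, edgeR adjusted p = 0.00235) and missed the threshold in progenitors (log2 -0.40, adjusted p = 0.0579), where it passed with library totals (log2 -0.68, adjusted p = 0.00387) and with thinned cells (log2 -0.57, adjusted p = 0.0162). Among the helicase subunits, Mcm7 was at 25.5, 17.1, 17.2 and 11.1 CPM in basal cells and at 7.73 to 12.4 in progenitors, which overlap. It was lower in progenitors (log2 -0.61, SE 0.18, adjusted p = 0.00885; -0.35 and adjusted p = 0.132 without the first corn oil-labelled library) and in hormone-sensing cells (log2 -1.04, adjusted p = 0.000897). Exons of Mcm7 overlap the microRNA genes Mir25 and Mir93 on the same strand.

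Mcm4 was also lower in both luminal classes, with log2 fold changes of -0.93 (SE 0.32, edgeR adjusted p = 0.0205) in progenitors and -1.36 (SE 0.44, adjusted p = 0.0142) in hormone-sensing cells. The progenitor call did not pass without the first 4OHT-labelled, the second 4OHT-labelled or the first corn oil-labelled library (adjusted p = 0.152, 0.0753 and 0.154), and the hormone-sensing call did not pass without the first 4OHT-labelled library (log2 -0.88, adjusted p = 0.148). Mcm6, a partner in the same helicase, went the other way, at 1.18 to 2.35 CPM in basal cells, 1.13 to 3.99 in progenitors and 2.35 to 6.44 in hormone-sensing cells. Progenitors held more than basal cells in 3 of 4 libraries and hormone-sensing cells in 4 of 4. The log2 fold change was 1.09 (SE 0.34, adjusted p = 0.0125) in progenitors and 1.32 (SE 0.42, adjusted p = 0.0119) in hormone-sensing cells, and neither passed without the first 4OHT-labelled library (adjusted p = 0.0771 and 0.102). The Mcm6 sums rested on 4 to 32 UMIs each. Sparse in basal cells (43 UMIs over 4 libraries), Mcm6 entered the fit through the luminal sums, so the filter on low counts favoured higher calls. Gins2, a subunit of the active helicase, was higher in hormone-sensing cells than in basal cells (log2 0.90, SE 0.31, adjusted p = 0.0185) and progenitors (log2 0.89, adjusted p = 0.0266). With thinned cells these differences were 0.24 and 0.49 (adjusted p = 0.717 and 0.421), and without the first corn oil-labelled library 0.55 and 0.71 (adjusted p = 0.142 and 0.0848). Without the second 4OHT-labelled library they were 1.00 and 1.00 (adjusted p = 0.0517 and 0.0704), and without the first the second of them was 0.86 (adjusted p = 0.0891). Mcm2 was tested and did not differ past the threshold, and Mcm3 and Mcm5 were too sparse.

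The genes of nucleotide supply were split too. Rrm1, the large subunit of ribonucleotide reductase, was lower in progenitors than in basal cells (log2 -0.89, SE 0.35, edgeR adjusted p = 0.0401), which leaving out any library but the second 4OHT-labelled one ended (adjusted p = 0.246 without the first 4OHT-labelled, 0.154 without the first corn oil-labelled and 0.0504 without the second corn oil-labelled library). Tyms, thymidylate synthase, was higher in progenitors (log2 1.46, SE 0.27, adjusted p = 0.000254), at 7.57, 2.97, 2.62 and 7.57 CPM against 2.72, 1.68, 1.52 and 2.88 in basal cells. The 2 classes overlapped across libraries, but within each library the progenitor sum was the higher. Pclaf, a PCNA-binding factor (chr9:65890237-65903266, plus strand), had 5 UMIs in all basal sums together and 25, 19, 2 and 39 in the progenitor sums. Its log2 fold change was 4.32 (SE 0.84, adjusted p = 0.000356) in progenitors and 3.99 (SE 1.00, adjusted p = 0.00253) in hormone-sensing cells. The second of these dropped to 2.26 (adjusted p = 0.154) without the first corn oil-labelled library, which held 17 of the 23 hormone-sensing UMIs. With so few basal UMIs, Pclaf entered the fit through the luminal sums, so the filter on low counts favoured higher calls. Cells with UMIs of at least 3 different mitotic members held 52 of its 85 progenitor UMIs and 22 of the 23 hormone-sensing ones.

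Mitotic RNA was rare, with 70 to 148 UMIs of all 16 mitotic members in a basal sum, 83 to 383 in a progenitor sum and 24 to 194 in a hormone-sensing sum. Ube2c (chr2:164769898-164778822, plus strand), the ubiquitin-conjugating enzyme of the APC/C, was at 0.494, 0.459, 0.168 and 1.97 CPM in basal cells and at 9.22, 7.43, 0 and 8.85 in progenitors. In hormone-sensing cells it was at 37.8, 1.18, 0 and 4.33 CPM. A sum of 0 UMIs allows up to 0.357 CPM in the progenitors and 1.93 CPM in the hormone-sensing cells of the first 4OHT-labelled library by a count of 3. The progenitor sums lay above the basal ones in 3 of 4 libraries, and in the first 4OHT-labelled library 0 UMIs in progenitors and 1 in basal cells gave no order.

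Of the 9 mitotic members with enough counts, 5 were higher in progenitors than in basal cells and none was lower, where 26.6% of all genes were higher and 29.5% lower. Members this sparse in basal cells (7 UMIs of Ccnb2, 13 of Cenpf, 21 of Ube2c and 24 of Cdc20 over 4 libraries) entered the fit through the luminal sums, so the filter favoured this direction. They were Ube2c (log2 3.36, SE 0.70, edgeR adjusted p = 0.000647), the B-type cyclin Ccnb2 (3.04, SE 0.68, adjusted p = 0.00117), the kinetochore gene Cenpf (2.64, SE 0.64, adjusted p = 0.00222), the APC/C activator Cdc20 (2.24, SE 0.50, adjusted p = 0.00129) and Cdk1 (1.65, SE 0.51, adjusted p = 0.0112). Cdk1 missed the threshold without the second 4OHT-labelled library (log2 1.47, adjusted p = 0.0690), and Cenpf was at 4.00 without it. Mki67 (log2 0.63, adjusted p = 0.266), the topoisomerase gene Top2a (0.97, adjusted p = 0.0782), the survivin gene Birc5 (1.06, adjusted p = 0.202) and the centromeric histone gene Cenpa (0.60, adjusted p = 0.0783) did not pass. Without the first 4OHT-labelled library, in which most mitotic members were low, Top2a (1.30, adjusted p = 0.0298), Birc5 (1.89, adjusted p = 0.0325) and Cenpa (0.91, adjusted p = 0.0135) passed as well. The count says nothing of the other 7 mitotic members.

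In hormone-sensing cells, Cenpf (log2 3.54, SE 0.68, edgeR adjusted p = 0.000311), Ccnb2 (3.42, SE 0.78, adjusted p = 0.00125), Ube2c (3.40, SE 0.77, adjusted p = 0.00126), Cdc20 (2.10, SE 0.62, adjusted p = 0.00768) and Cenpa (1.76, SE 0.29, adjusted p = 7.96e-05) were higher than in basal cells. In this comparison 27.3% of all genes were higher and 32.4% lower. The members sparse in basal cells (Cenpf, Ccnb2, Ube2c and Cdc20) entered this fit through the luminal sums, so the filter favoured higher calls. Without the first corn oil-labelled library Ube2c fell to 1.09 (adjusted p = 0.199), Cdc20 to 0.94 (adjusted p = 0.234) and Ccnb2 to 2.34 (adjusted p = 0.0525). Cenpf was at 2.33 without the second corn oil-labelled library. Cenpa alone also exceeded the progenitor level (log2 1.17, SE 0.29, adjusted p = 0.00324), at 27.0, 13.5, 10.3 and 22.4 CPM against 6.19, 11.2, 1.90 and 9.18, higher in 4 of 4 libraries.

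Single cells showed where this RNA was. Of 13825 classed cells, 26 had UMIs of at least 3 different mitotic members, 17 of them progenitors, 5 hormone-sensing and 4 basal. The cut lies close to the sparse bulk of the cells, since 7 cells had exactly 3 members and 56 had exactly 2. The 26 cells held 1394 to 26003 UMIs (median 10330) and 0.442% of the UMIs of all classed cells. In the hormone-sensing sum of the first corn oil-labelled library, 1 cell with 14 of the 16 members and 21999 UMIs held 157 of the 194 mitotic UMIs (80.9%) and 47 of the 49 Ube2c UMIs. In the progenitor sum of that library, 1 cell with all 16 members held 180 of 383 mitotic UMIs, and in the second corn oil-labelled library 1 such cell held 97 of 265. The basal sum of the second 4OHT-labelled library had 58 of its 148 mitotic UMIs in 1 cell with 15 members. Outside that library the basal sums had 2.63 to 4.29% of their mitotic UMIs in cells with 3 or more members. No doublet caller was run, and the part of doublets among these deep cells was not tested.

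**Figure D3:**
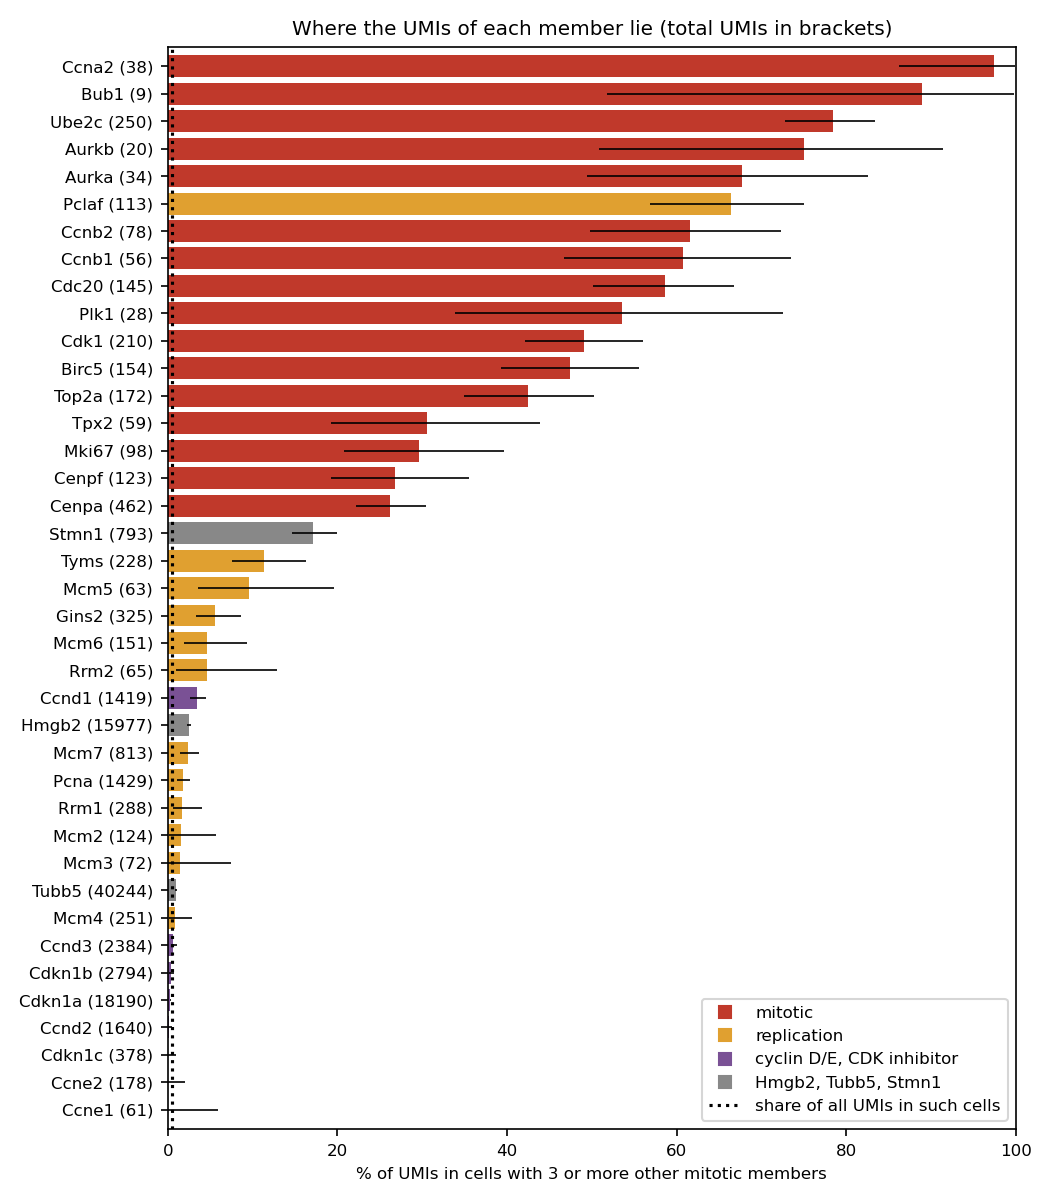
Percentage of each member's UMIs (x axis, exact binomial 95% interval as line) found in cells with UMIs of 3 or more other mitotic members, with the member's total UMIs in brackets and the share of all UMIs in such cells (0.442%) as a dotted line. Mitotic members and Pclaf lie between 26.2 and 97.4%, the other members at 17.2% or less.

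A member's own UMIs lay in these cells to very different degrees, counting for a mitotic gene only the other 15. The share was 97.4% (37 of 38 UMIs, exact 95% interval 86.2 to 99.9%) for Ccna2, the cyclin of S and G2, 78.4% (196 of 250) for Ube2c, 67.6% for the spindle kinase gene Aurka and 49.0% (103 of 210) for Cdk1. Mki67 had 29.6% (29 of 98), Cenpf 26.8% and Cenpa 26.2%, so most UMIs of these genes were in cells with fewer than 3 other mitotic members. Pclaf, counted with replication, had 66.4% (75 of 113 UMIs), while Tyms had 11.4%, Gins2 5.54%, Pcna 1.75% and Rrm1 1.74%. Ccnd1 had 3.45% (49 of 1419 UMIs, in 10 of the 26 cells), Cdkn1a 0.302%, Ccnd2 0.183% and Cdkn1c 0 of 378 UMIs. Since 22 of the 26 cells were luminal, the share of all UMIs is no matched reference for genes of 1 class. Within progenitors, Ccnd1 had 5.12% of its UMIs in such cells (44 of 860, in 7 cells, exact 95% interval 3.74 to 6.81%), where these cells held 0.653% of all progenitor UMIs, and Cdkn1a had 0.704% (interval 0.508 to 0.9504%). Within basal cells, Ccnd2 had 0.126% (2 of 1586, interval 0.0153 to 0.455%), where such cells held 0.118% of the UMIs. The intervals cover counting error only, and UMIs of 1 cell are not independent.

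**Figure D4:**
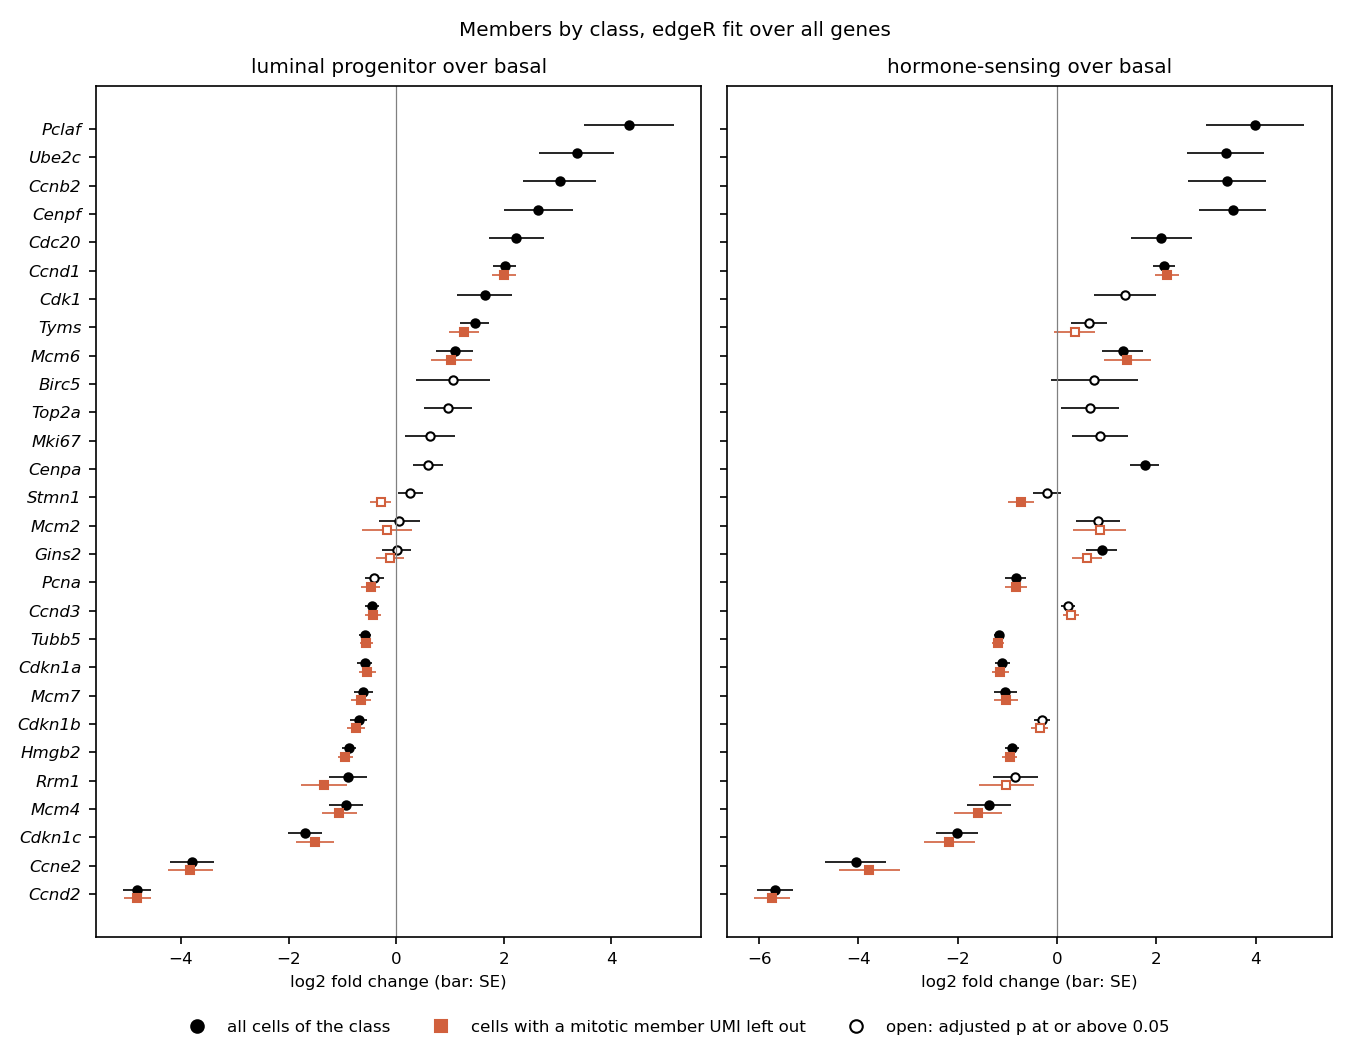
Log2 fold change against basal cells (x axis, bars 1 SE) of the 28 tested members (y axis) in progenitors (left) and hormone-sensing cells (right), over all cells (black) and with every cell holding a mitotic UMI left out (orange), filled where the adjusted p was under 0.05. Ccnd1, Ccnd2, Ccne2 and the CDK inhibitors keep their places, with Ccnd2 at -4.81 and Ccnd1 at 2.02 in progenitors over all cells.

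Leaving out all 881 classed cells with a UMI of any mitotic member left 18 members with enough counts. Of these, 15 passed in progenitors and 12 in hormone-sensing cells against basal cells, where 56.1 and 58.5% of 10927 genes did, and 3 passed between the luminal classes (45.1% of genes). The splits were 3 higher and 12 lower, 2 and 10, and 1 and 2. Mean levels of the D-type cyclins moved by less than the spread between libraries, with Ccnd1 at 29.1 CPM in progenitors (30.6 over all cells) and Ccnd2 at 57.3 in basal cells (57.7). The mitotic members are at 0 in such sums by construction.

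Promoter sequences of the members were read for the letters that cell cycle genes are known to carry. The CHR (TTTGAA or TTCGAA) and the CCAAT box (CCAAT) are elements of genes that peak in G2 and mitosis, and E2F factors bind near the starts of replication genes. In RefSeq promoters of 300 bases (250 before and 50 after the start, GRCm38.p6, both strands searched), which matched 29 of the 39 members, a CHR was in 11 of 13 mitotic promoters and in 19.2% of all 32851 promoters. A CCAAT was in 12 of 13 mitotic and in 10 of 11 replication promoters, against 37.4% of all, so it was not particular to the mitotic genes. A pair of CCAAT boxes 31 to 33 bases apart, a spacing chosen after the members' promoters were seen, was in 5 of 13 and in 0.971% of all. An E2F match (TTTGGCGC, TTTCCCGC, TTTGCCGC, TTTCGCGC or TTCCCGCC) was in 6 of 11 replication promoters, 1 of 13 mitotic promoters and 3.89% of all. None of the 6 promoters of Ccnd3, Ccne1, Cdkn1a and Cdkn1b held a CHR or an E2F match. Mcm6 and Tyms are 2 of the replication genes that were higher in progenitors. The bases before the start are given for them and for 4 of the mitotic genes that were, with matches in capitals. They lie at chr2:164769809-164769927 on the plus strand (Ube2c) and on the minus strand at chr10:69352913-69353032 (Cdk1), chr9:70421555-70421674 (Ccnb2), chr4:118437344-118437463 (Cdc20), chr1:128359706-128359825 (Mcm6) and chr5:30073626-30073745 (Tyms).
Ube2c: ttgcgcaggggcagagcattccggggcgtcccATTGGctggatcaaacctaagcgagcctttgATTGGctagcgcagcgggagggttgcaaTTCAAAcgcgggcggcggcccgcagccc
Cdk1: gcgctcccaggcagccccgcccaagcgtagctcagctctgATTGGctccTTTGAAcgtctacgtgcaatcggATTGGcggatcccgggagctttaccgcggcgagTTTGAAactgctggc
Ccnb2: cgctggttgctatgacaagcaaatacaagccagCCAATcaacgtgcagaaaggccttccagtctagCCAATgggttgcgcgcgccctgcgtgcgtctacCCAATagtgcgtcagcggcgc
Cdc20: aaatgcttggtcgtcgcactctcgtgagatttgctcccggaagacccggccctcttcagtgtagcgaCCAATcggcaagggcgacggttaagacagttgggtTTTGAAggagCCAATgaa
Mcm6: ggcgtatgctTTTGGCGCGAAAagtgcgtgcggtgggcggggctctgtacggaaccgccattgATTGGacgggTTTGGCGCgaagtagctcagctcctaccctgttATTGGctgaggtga
Tyms: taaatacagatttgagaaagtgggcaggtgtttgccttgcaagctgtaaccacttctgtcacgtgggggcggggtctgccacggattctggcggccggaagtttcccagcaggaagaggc
In Ube2c and Cdk1, CCAAT boxes in reverse (ATTGG) stand before a CHR near the start. Ccnb2 has 3 CCAAT boxes in this stretch, and Mcm6 has E2F matches that overlap at its far end and another nearer the start. No match lies in the Tyms stretch. The stretches of Cenpf and Pclaf (64 bases for Pclaf), also higher in progenitors, are not shown. Each held a single CCAAT box and no CHR or E2F match. A match is a run of letters and not a bound site.

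The abundant chromatin and cytoskeleton members followed the basal cells. Tubb5, a beta-tubulin, was at 983, 911, 908 and 705 CPM in basal cells, 438 to 518 in progenitors and 328 to 457 in hormone-sensing cells, with no overlap between basal and luminal sums. Its log2 fold change was -0.58 (SE 0.11, edgeR adjusted p = 0.000237) in progenitors and -1.17 (SE 0.11, adjusted p = 1.42e-07) in hormone-sensing cells, and -0.59 (adjusted p = 0.000304) between the luminal classes. Hmgb2, a DNA-bending chromatin protein, was at 316, 319, 331 and 515 CPM in basal cells and at 149 to 174 in progenitors, with log2 fold changes of -0.88 (SE 0.14, adjusted p = 4.79e-05) in progenitors and -0.91 (SE 0.14, adjusted p = 3.76e-05) in hormone-sensing cells. Stmn1, which destabilises microtubules, did not pass in any class comparison, and 17.2% of its UMIs lay in the cells with 3 or more mitotic members, more than for any other member outside the mitotic genes and Pclaf. Tubulin and HMGB genes have close copies, and how the authors' counting treated reads that match several copies was not tested.

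Labelled treatment did not separate the members by the test. In the fits of 4OHT- against corn oil-labelled libraries within a class (edgeR quasi-likelihood test, 2 against 2), 0 of 25 members passed in basal cells, 0 of 27 in progenitors and 0 of 11 in hormone-sensing cells, against 0.0, 0.0 and 0.0132% of the 10788, 10120 and 7589 genes tested. At an unadjusted p under 0.05 the members numbered 0, 0 and 1, against 4.31, 1.64 and 3.16% of all genes, and DESeq2 called 0 in each class. In the test of a different treatment effect between classes 0 of 28 members passed for progenitors and for hormone-sensing cells against basal cells (0.0 and 0.00898% of 11135 genes), with 0 and 4 at an unadjusted p under 0.05 (4.03 and 6.15% of all genes). DESeq2 was not run on that test.

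Ccnd1 was higher in both 4OHT-labelled libraries than in both corn oil-labelled ones in every class. In basal cells the mean was 6.55 ± 2.63 CPM (SD, n = 2) with corn oil labels and 12.5 ± 4.84 with 4OHT labels, in progenitors 26.1 ± 4.91 and 35.1 ± 3.18, and in hormone-sensing cells 29.4 ± 4.18 and 53.4 ± 1.82. The log2 differences were 1.01 (SE 0.47), 0.52 (SE 0.31) and 0.83 (SE 0.29), and edgeR's adjusted p was 1.00 in each, with unadjusted p of 0.0737, 0.131 and 0.0180. Leaving out 1 library at a time gave 0.42 to 1.57, 0.32 to 0.78 and 0.76 to 0.90, with the lowest values without the second 4OHT-labelled library in basal and hormone-sensing cells and without the second corn oil-labelled one in progenitors. The classes of a library come from the same cell suspension, so these are not 3 independent observations.

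Members whose libraries did not overlap by label were, in basal cells, about as frequent as such genes among all genes. Of 25 basal members with a UMI in every library and a mean of 10 UMIs, 3 were higher with 4OHT labels (Ccnd1, Cdkn1c and Hmgb2) and 4 lower (Ccnd2, Ccne1, Rrm2 and Tubb5), where 13.1 and 17.6% of all such genes did not overlap in that direction. In progenitors 3 of 26 were higher (Ccnd1, Ccnd2 and Hmgb2; 7.45% of all genes) and Cenpf lower (17.5%). In hormone-sensing cells 2 of 12 were higher (Ccnd1 and Pcna; 17.5%) and Cenpf lower (13.4%). Hmgb2 in basal cells had a log2 difference of 0.48 (SE 0.31, edgeR adjusted p = 1.00), which was 0.02 without the second 4OHT-labelled library and 0.85 without the first. The second library's 515 CPM stood above the 316 to 331 of the other libraries.

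**Figure D5:**
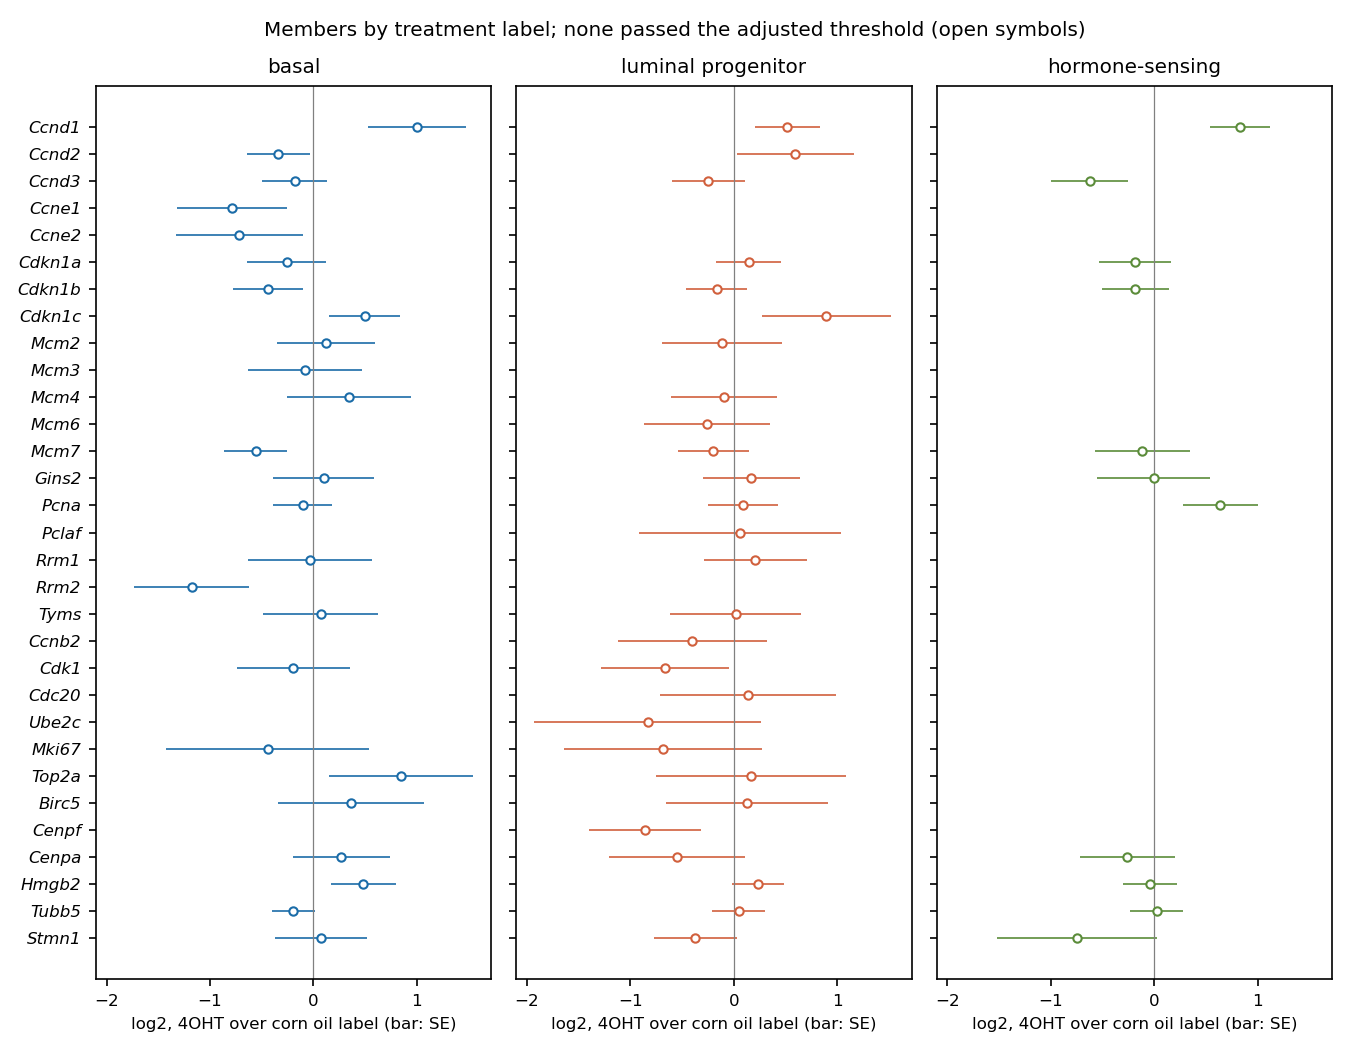
Log2 difference of 4OHT- over corn oil-labelled libraries (x axis, same scale in each panel, bars 1 SE) for each tested member (y axis) in basal cells, progenitors and hormone-sensing cells, all open because none passed the adjusted threshold. Ccnd1 lies to the right of 0 in all panels, at 1.01, 0.52 and 0.83.

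Cells with several mitotic members were not told apart by label either. Among 12745 cells thinned to 2000 UMIs, with shallower cells left out, those with 3 or more mitotic members numbered 4 of 1248, 2 of 1098, 0 of 1630 and 3 of 1299 in progenitors (corn oil labels first), or 0.251 ± 0.0978% (SD, n = 2) with corn oil labels and 0.115 ± 0.163% with 4OHT labels. The 0 of the first 4OHT-labelled library allows a share of up to 0.184%. In hormone-sensing cells the counts were 1 of 151, 0 of 326, 0 of 236 and 2 of 436, and in basal cells 0 of 1462, 0 of 1750, 0 of 1310 and 1 of 1799. The exact two-sided permutation test over the library shares (n = 2 against 2) gave p = 0.667 in progenitors, 1.00 in hormone-sensing cells and 1.00 in basal cells, where 0.3333 is the smallest p it can give. Without thinning the progenitor counts were 6, 5, 0 and 6. In the first 4OHT-labelled library the mitotic members summed to 9.88 CPM in progenitors, against 43.8 to 56.7 in the other 3 libraries, and 4 of the 16 were at 0. Ube2c is the plainest case, with a log2 difference by label of -0.83 (SE 1.10, edgeR adjusted p = 1.00) that turned to 0.24 without that library and passed without the second 4OHT-labelled library (adjusted p = 4.07e-06), when that 0 stood alone for the label.

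Other genes of the cycle, in 3 lists that hold no member, were called in both directions. Of 20 tested CDKs, inhibitors and checkpoint genes, 7 were higher and 6 lower in progenitors than in basal cells, of 14 tested G2 and mitosis genes 5 and 0, and of 23 tested S phase genes 4 and 6, where 26.6% of all genes were higher and 29.5% lower. Only 14 of the 38 G2 and mitosis genes had enough counts. Genes sparse in basal cells can enter this fit through the luminal sums, and the filter then favours higher calls. How many did so was not tested. In hormone-sensing against basal cells 4 were higher and 8 lower in the first list, 3 and 2 in the second and 3 and 7 in the third, where 27.3% of all genes were higher and 32.4% lower. The INK4 inhibitors did not share an order. Cdkn2d, encoding p19, was at 81.1 to 99.7 CPM in basal cells, 13.9 to 23.3 in progenitors and 20.1 to 24.7 in hormone-sensing cells (log2 -2.19 and -2.02, edgeR adjusted p = 6.22e-09 and 4.99e-08). Cdkn2c, encoding p18, was higher in both luminal classes (log2 2.13 and 2.35, adjusted p = 1.05e-06 and 1.26e-06), and Cdkn2b, encoding p15, was higher in progenitors (log2 2.12, adjusted p = 0.00151) and did not pass in hormone-sensing cells (log2 0.70, adjusted p = 0.374). Both lie under the 20 CPM set for naming genes of these lists and were named after their values were seen. The antiproliferative gene Btg1 and the stress-induced Gadd45a were higher in luminal cells. Btg1 was highest in progenitors, at 1045 to 1666 CPM against 343 to 530 in basal cells (log2 1.86, SE 0.14, adjusted p = 1.10e-08). Btg2 did not share this order, at 562 ± 299 CPM (SD, n = 4) in basal cells, 347 ± 106 in progenitors and 175 ± 36.8 in hormone-sensing cells. It was lower in hormone-sensing than in basal cells (log2 -1.57, SE 0.22, adjusted p = 1.31e-05) and than in progenitors (log2 -1.20, adjusted p = 0.000268). Gadd45a was highest in hormone-sensing cells, at 577 to 887 CPM against 191 to 236 in basal cells (log2 1.75, SE 0.18, adjusted p = 5.48e-07). The oncogene Myc was lower in hormone-sensing than in basal cells (log2 -1.91, SE 0.16, adjusted p = 4.36e-08). Cks1b, a CDK-binding subunit, was about level between basal cells and progenitors (94.0 ± 14.3 and 91.7 ± 14.8 CPM, SD, n = 4) and lower in hormone-sensing cells (34.4 ± 3.70 CPM; log2 -1.65 against progenitors, adjusted p = 1.36e-07). For treatment 0 genes of these lists passed in any class by edgeR, with 3 of 52 tested in basal cells, 0 of 60 in progenitors and 2 of 34 in hormone-sensing cells at an unadjusted p under 0.05.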

How the data were processed

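Each deposited file holds UMI counts, not normalized, of every gene in every cell; per the submitters' processing notes the authors used Cell Ranger 3.0.1 and mm10. Strand handling is not given in the sources used here, and exons of 12 members overlap a gene on the other strand (Ccnd1 with LTO1, Ccne2 with Ints8, Ube2c with Tnnc2 and others), whose reads cannot be told apart without it. Cells with at least 1000 UMIs were classed: basal with at least 5 UMIs of Krt5, Krt14, Krt17 and Acta2 and over 3 times those of Krt8, Krt18 and Krt19, luminal in reverse, hormone-sensing with at least 3 UMIs of Ly6d, Fxyd2 and Gpx3 exceeding Wfdc18, Csn3 and Ltf. Median depth was 2828 to 8258 UMIs per class and library. No doublet caller was run. Counts were summed per library and class and fitted over all genes with edgeR 4.0.16 (R 4.3.3; TMM, filterByExpr, glmQLFTest, threshold 0.05), tested on simulated data. Treatment fits used 4 sums per class, class fits 12 with the library as a block. SE is the log2 fold change divided by the root of F. Alternatives included DESeq2 1.42.0, other scaling and filters, stricter classes, thinned cells and leaving out each library. A basal rule without Acta2 was chosen after seeing the data. All 39 members could be named, and of the other cycle genes at most 3 per list and direction with the largest changes and a mean of 20 CPM. The members and lists were chosen with earlier results of these data known.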

Additional observations from a re-analysis of the deposited data

Results flagged for a closer look

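Ccnd2 moved in opposite directions by label in the basal and progenitor sums. Both 4OHT-labelled libraries lay below both corn oil-labelled ones in basal cells (log2 -0.34) and above them in progenitors (log2 0.60), the latter on 7 to 16 UMIs per library. The difference between these effects was 1.00 (SE 0.50) and did not pass (edgeR adjusted p = 1.00). Among cells of no class, which the comparisons do not use, 2 of 1358 in the second 4OHT-labelled library had 3 or more mitotic members (0.147%, exact 95% interval 0.0178 to 0.531%), and none did in the other 3 libraries, whose zeros allow up to 0.242 to 0.524%.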

How the results depend on the processing

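Of 81 results for single genes, 54 kept their direction and side of the threshold under every alternative run. With cells thinned to 2000 UMIs, 15 members were tested in place of 28, and 11, 10 and 3 passed for progenitors against basal cells, hormone-sensing against basal cells and hormone-sensing cells against progenitors (51.9, 51.2 and 38.0% of all genes). A filter at 20 CPM tested 8, of which 8, 6 and 3 passed (63.8, 70.9 and 60.1% of all genes). Between the luminal classes 3 of 18 passed with mitotic cells left out and 2 of 28 with no library block. For treatment in hormone-sensing cells 2 of 38 members (Ube2c and Cenpf, both lower with 4OHT labels) passed with no filter on low counts, where 59 of 14906 genes did. The hormone-sensing sums held 62 Ube2c UMIs, 47 of them in 1 cell of the first corn oil-labelled library. Cdkn1b in hormone-sensing against basal cells turned to 0.0084 with stricter classes, Cdk1 in the same comparison ranged from -0.026 (without the first corn oil-labelled library) to 1.90 and Ube2c by label in progenitors from -8.91 to 0.24 when 1 library was left out, the -8.91 against a lone library at 0 and so not a bound. The difference in the basal share of cells with 3 or more mitotic members went from 0.0278 to -0.00115 percentage points without thinning, and that in hormone-sensing cells ranged from -0.433 to 0.229 when 1 library was left out. Calls lost with no library block were Cdkn1a, Rrm1 and Ccnd3 in progenitors against basal cells and Cdkn1a, Cenpa and Ccnd3 between the luminal classes (adjusted p 0.0551 to 0.202), and DESeq2 did not call Rrm1, Mcm4 and Cdk1 in progenitors or Ube2c in hormone-sensing cells (adjusted p 0.0510 to 0.0772). The cause was not tested for any of these beyond what the alternatives remove by construction.

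Same-numbered libraries deviated together (correlation 0.559, 0.317 and 0.220 in basal, progenitor and hormone-sensing sums), but 2 pairs share only a number. With the replicate block 0 members passed in any class or between classes, while calls over all genes went from 0 to 167 in basal cells, 0 to 9 in progenitors and 1 to 3 in hormone-sensing cells. DESeq2 called 38, 1 and 7 genes, and no filter on low counts gave 93, 39 and 59. The mitotic members rested on 24 to 383 UMIs per sum.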

Other observations

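Libraries numbered 1 and 2 differed in several members of the basal sums, whichever their treatment label. Ccne2 was at 11.1 and 6.40 CPM in the first libraries and at 3.52 and 2.43 in the second, Mcm4 at 8.28 and 9.43 against 2.45 and 4.10, Rrm1 at 9.02 and 10.4 against 4.44 and 2.73, and Stmn1 at 17.5 and 17.9 against 7.95 and 8.65. Cdkn1a went the other way, at 383 and 248 CPM in the first libraries and 504 and 458 in the second. These genes were picked after their values were seen. The labels do not say what the numbers stand for.

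Cells of no class held Cdkn1a at 511, 676, 486 and 761 CPM, above each of the 3 classes in every library, and Ccnd2 at 70.3, 70.1, 56.3 and 45.6 CPM, against 40.8 to 68.4 in the basal sums.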
